A study of Mus musculus with 12 samples.

Results

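Transcripts of 10 genes of the urea cycle and of periportal hepatocytes were examined in mouse liver: Cps1, Otc, Ass1, Asl, Arg1, Hal, Sds, Gls2, Cyp2f2 and Pigr. They were taken by symbol from a count table of 55421 genes, in which each of the 10 symbols named 1 row. All 10 were among the 14076 genes that passed the filter on low counts. RNA was sequenced from whole livers of adult male C57BL/6 mice of 2 strains, Fra1hep and Fra2hep, with 3 mutants and 3 controls in each. Mutants carry a transgene for a subunit of the transcription factor AP-1, Fra-1 (gene Fosl1) or Fra-2 (gene Fosl2). Doxycycline was removed from all 12 mice at 3 weeks of age, which switches the transgene on in mutants, and the controls were littermates from the same cages. Titles and design text place sampling 2 months later for all groups, whereas the treatment label of the Fra2hep mutants alone gives 9 months. What promoter drives either transgene is not given here. Each p-value sets a difference against the spread between separate mice within groups of 3. That spread was estimated for each gene over all 12 libraries and moderated across genes, and litter was not modelled.

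The urea cycle turns toxic ammonia from amino acid breakdown into urea, and in mammals it runs almost wholly in hepatocytes. Its enzymes, like those that release nitrogen from glutamine, histidine and serine, are most active in hepatocytes near the portal vein, where blood enters the liver lobule. Hepatocytes near the central vein instead trap left-over ammonia as glutamine. In RNA from bulk liver, fewer cells of a type and less RNA per cell cannot be told apart.

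Each library held 16834041 to 20464807 counts, and the members had 969 to 89641 counts in a library. The transgenes followed the labels. Fosl1 was at 9.41, 10.2 and 12.8 CPM (counts scaled to a common library size) in the Fra1hep mutants against 0, 0 and 0.0538 in their controls. Fosl2 was at 413 ± 12.9 CPM (SD, n = 3) in the Fra2hep mutants against 25.4 ± 19.7 in theirs. The summed level of 7 hepatocyte markers was 99810 to 135700 CPM in the Fra1hep controls, 65740 to 126000 in the Fra1hep mutants, 118500 to 144200 in the Fra2hep controls and 75150 to 92870 in the Fra2hep mutants, with no marker at 0 and none of the 7 called in either strain. That sum was thus lower in each Fra2hep mutant than in each Fra2hep control, and Alb (albumin) alone made up 47.9% to 71.4% of it in the 12 livers. Without Alb it was 39590 to 49860 and 28320 to 46540 CPM in Fra1hep controls and mutants, and 39730 to 42980 and 37660 to 39510 CPM in Fra2hep. The Fra2hep groups thus stayed apart without Alb, though narrowly. Of the 7 markers, 6 had a negative log2 fold change in Fra1hep (median -0.41) and 5 in Fra2hep (median -0.07). An unadjusted edgeR p under 0.05 was found for 3 and 4 of them, as for 16.3% and 11.5% of all genes. In the averaged effect of both strains 6 of the 7 were negative. There 1 was called higher and 1 lower, as were 4.33% and 1.90% of all genes. Apob (apolipoprotein B) rose by a log2 fold change of 0.80 ± 0.16 and Apoa1 (apolipoprotein A-I) fell, at -1.02 ± 0.23 (edgeR adjusted p 0.0117 and 0.0219). Both are named after their values were seen. The part of these differences in the values that follow was not tested.

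Gene positions are from GENCODE M21 on GRCm38, which matched all 10 identifiers. Cps1 spans chr1:67123026-67231259 (+ strand) and encodes the mitochondrial enzyme that joins ammonia and bicarbonate. Otc spans chrX:10252305-10321024 (+) and encodes ornithine transcarbamylase, the second mitochondrial enzyme, which makes citrulline. Ass1 at chr2:31470207-31520672 (+) and Asl at chr5:130011258-130029247 (−) encode the cytosolic enzymes that make and split argininosuccinate. Arg1 at chr10:24915221-24927484 (−) encodes arginase, which releases urea. Hal at chr10:93488768-93519304 (+), Sds at chr5:120476526-120483932 (+) and Gls2 at chr10:128194457-128210004 (+) encode enzymes that take ammonia from histidine, serine and glutamine. Cyp2f2 at chr7:27119909-27133660 (+) encodes a periportal cytochrome P450, and Pigr at chr1:130826684-130852249 (+) the receptor that carries polymeric immunoglobulin across epithelia. Sds overlaps Gm15690 and Plbd2, Gls2 overlaps Spryd4 and Cyp2f2 overlaps Gm15883, each on the opposite strand. Counts of these 3 members are uncertain to that extent, because the labels do not say whether the counting used strand.

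The promoters of Otc and Hal are shown because these members had the largest and the smallest spread between the livers and because the transgenes encode AP-1 subunits. Both run from 250 bases before to 50 bases after the annotated start, on the + strand of GRCm38.p6, from RefSeq: chrX:10252055-10252354 for Otc and chr10:93488518-93488817 for Hal. Capitals mark a match to TGANTCA, the pattern used here for an AP-1 site, in which N is any base.
Otc: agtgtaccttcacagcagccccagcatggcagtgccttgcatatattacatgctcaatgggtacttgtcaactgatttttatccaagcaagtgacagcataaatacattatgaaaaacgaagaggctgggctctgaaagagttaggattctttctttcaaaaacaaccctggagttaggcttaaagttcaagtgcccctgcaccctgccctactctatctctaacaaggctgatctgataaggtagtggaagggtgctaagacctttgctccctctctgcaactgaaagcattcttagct
Hal: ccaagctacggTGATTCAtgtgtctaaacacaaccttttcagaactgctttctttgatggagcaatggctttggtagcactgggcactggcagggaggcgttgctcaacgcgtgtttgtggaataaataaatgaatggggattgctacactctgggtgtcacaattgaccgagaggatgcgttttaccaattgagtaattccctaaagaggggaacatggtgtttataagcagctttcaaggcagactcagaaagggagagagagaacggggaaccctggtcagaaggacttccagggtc
The table held promoters of 5 members, Otc, Ass1, Hal, Cyp2f2 and Pigr; Cps1, Asl, Arg1, Sds and Gls2 had no entry. Both strands were searched for 4 motifs, none of which contains another. TGANTCA was found in Hal only, as the TGATTCA that starts at position -239, and 7.81% of all 32851 promoters of that length hold this motif. The cAMP response element TGACGTCA (1.79% of all promoters), the HNF4-specific site CAAAGTCCA (0.475%) and the C/EBP site TTGCGCAA (0.183%) were in none of the 5. A match describes letters in this window and no binding was measured.

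None of the 10 members passed the test in either strain. Otc was at 0.348 and 0.343 of the control level in Fra1hep and Fra2hep. Each of the 6 mutants had less Otc than each of the 6 controls, a pattern that 1.13% of all genes had. Cps1 was higher in all Fra1hep mutants than in their controls, as were 11.7% of all genes, but not in Fra2hep mutants. Mean levels of Arg1 and Pigr were lower and that of Cyp2f2 higher in the mutants of both strains, within wide errors, while Asl, Hal and Gls2 were among the members with the smallest spread. The test was edgeR's quasi-likelihood test with Benjamini-Hochberg adjustment over all 14076 genes, at an adjusted p under 0.05.

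In the Fra1hep comparison 2.90% of all tested genes were called higher and 0.938% lower, against 0 of the 10 members. Without library scaling factors the 408 genes called higher and 132 called lower became 674 and 102, as this moved the median of all genes from 0.01 to 0.15 on the log2 scale. Adjusted p values of the members ran from 0.204 to 0.996 there, and log2 fold changes from -1.52 to 0.61 with a median of 0.10, beside 0.01 for all genes. Cps1 and Otc had an unadjusted p under 0.05, as did 16.3% of all genes. In the Fra2hep comparison 0.845% of genes were called higher and 0.220% lower, again with none of the 10 members. Adjusted p values ran from 0.383 to 0.997 and log2 fold changes from -1.54 to 0.63 with a median of 0.03, beside -0.01 for all genes, and Otc and Pigr had an unadjusted p under 0.05, as did 11.5% of all genes. Because Otc had shown the same direction in both strains, the average of the 2 mutant effects was also tested, a choice made after its counts had been seen. That test called 4.33% of genes higher and 1.90% lower, and no member; Otc, Cyp2f2, Pigr and Arg1 had an unadjusted p under 0.05, as did 19.4% of all genes. Without scaling factors it called 939 genes higher and 187 lower in place of 610 and 268.

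**Figure D1:**
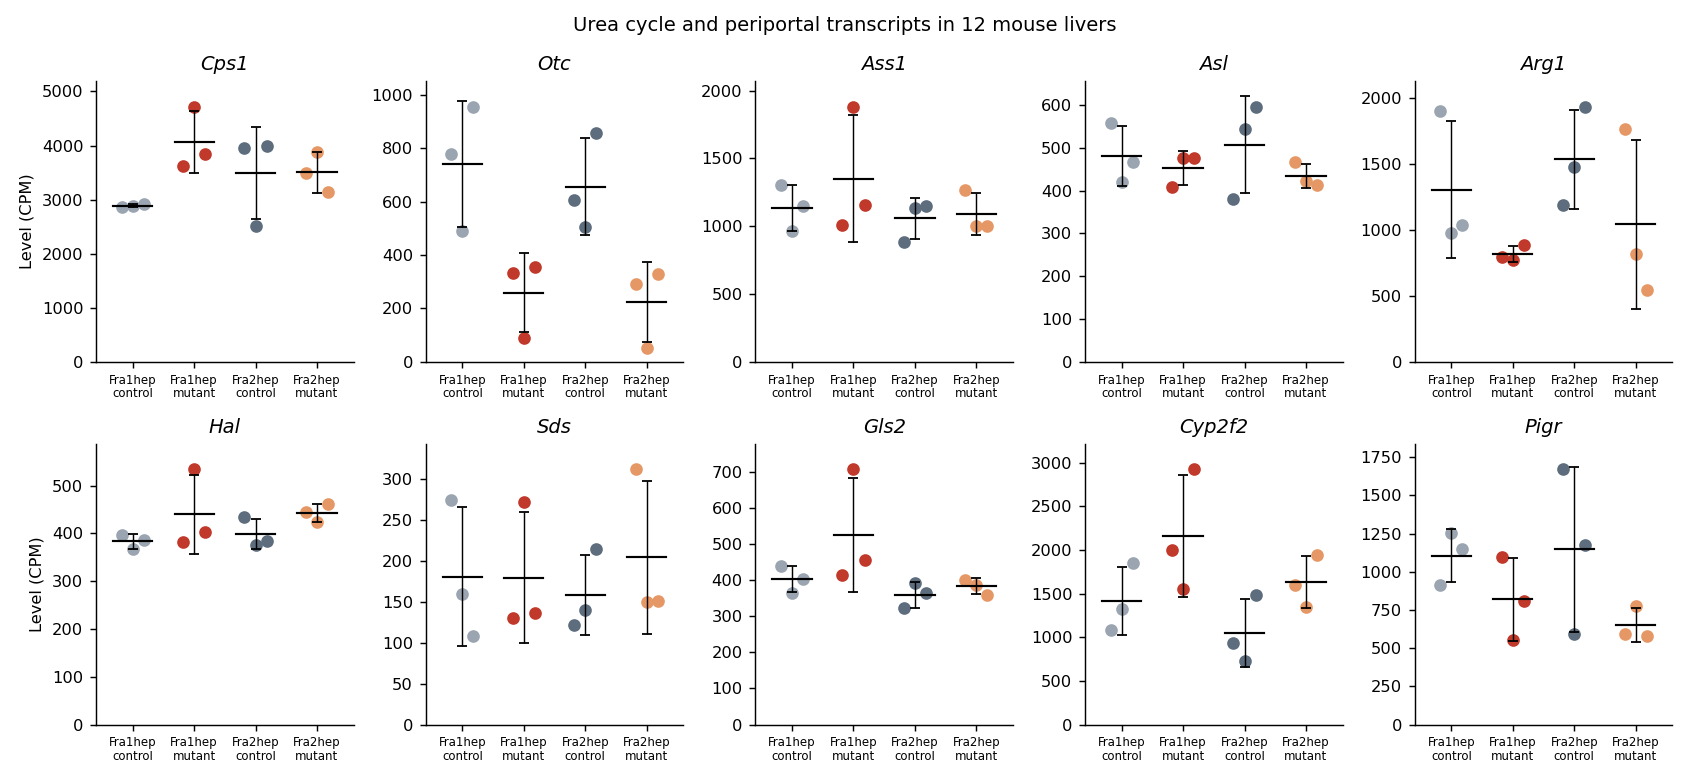
Level of each of the 10 members in the 12 livers, in CPM on axes that start at 0, by group; points are single mice, the horizontal line is the group mean and the bar is the SD (n = 3). Otc is the member in which all 6 mutants, 52.8 to 355 CPM, lie under all 6 controls, 488 to 955 CPM. Of all tested genes, 1.13% had that pattern.

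**Figure D2:**
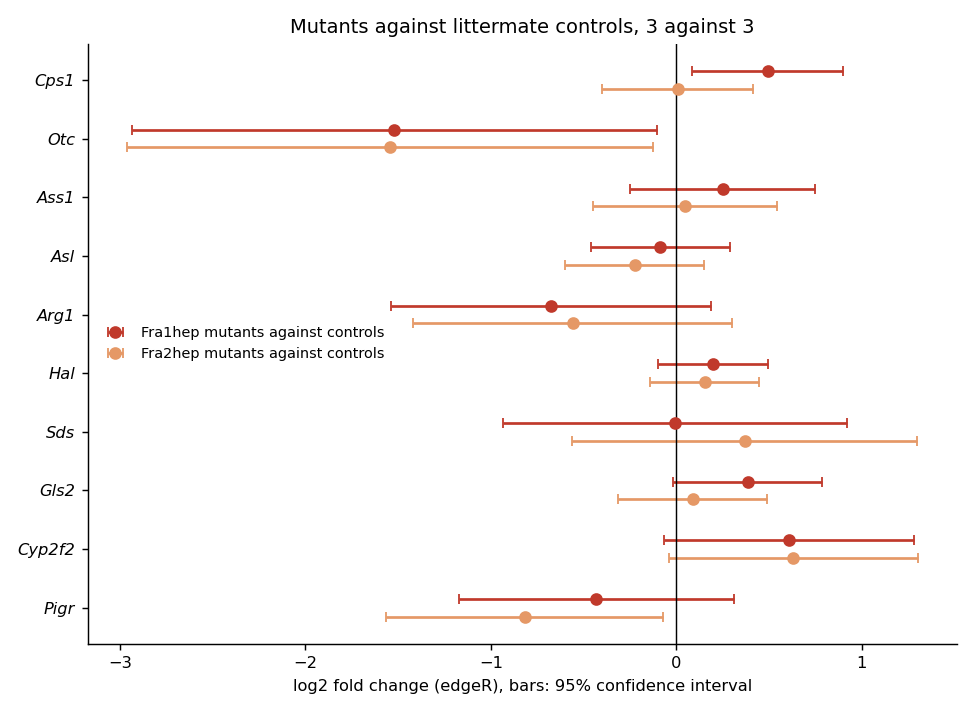
Log2 fold change of each member between mutants and littermate controls, from edgeR, with its 95% confidence interval, for Fra1hep (dark) and Fra2hep (light). Otc lies at -1.52 and -1.54 with the widest intervals; no member passed the test in either strain.

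Levels between genes were compared per kilobase of annotated exon. The length was the union of all annotated exons of a gene, which can exceed that of the transcript expressed. In the Fra1hep controls, mean levels were 699.9 CPM per kb for Cyp2f2, 586 for Arg1, 520.5 for Cps1, 471 for Ass1, 275 for Pigr, 175 for Otc, 116 for Gls2, 107 for Sds, 99.8 for Asl and 69.1 for Hal. Neighbours in this order often overlapped: Arg1 ranged over 439 to 854 CPM per kb and Cyp2f2 over 534 to 913. In the Fra1hep mutants Otc averaged 60.8 CPM per kb and stood last, behind Hal at 79.3. In the Fra2hep mutants it averaged 53.0, again behind Hal at 79.8. By this measure Otc was sixth of the 10 members in the Fra1hep controls and had the lowest mean of the 10 in both mutant groups. In the Fra2hep controls it averaged 154.5 CPM per kb. The order depends on the lengths used. In CPM alone Otc was not last, at 258 beside 180 for Sds in Fra1hep mutants and 225 beside 205 in Fra2hep mutants.

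Otc was at 778, 488 and 955 CPM in the Fra1hep controls and at 331, 88.2 and 355 CPM in the Fra1hep mutants. It was at 605, 504 and 857 CPM in the Fra2hep controls and at 292, 52.8 and 329 CPM in the Fra2hep mutants. The groups did not overlap in either strain, and in each strain mutant 2 was far below the other mutants. Control 2 was also the lowest control of each strain, at 488 and 504 CPM, and number 3 was the highest in every group. The 2 lowest libraries rested on 1674 and 969 counts, so counting error was small beside the differences between mice. Group means were 741 ± 236 and 258 ± 148 CPM in Fra1hep and 655 ± 182 and 225 ± 150.1 CPM in Fra2hep (SD, n = 3 each).

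The log2 fold change of Otc was -1.52 ± 0.64 (SE; 95% confidence interval -2.94 to -0.11) in Fra1hep, with an adjusted p of 0.267 by edgeR's quasi-likelihood test. It was -1.54 ± 0.64 (-2.96 to -0.13) in Fra2hep, with an adjusted p of 0.389 by the same test. The interval in each strain reached almost to no change, and neither difference passed. Every mutant lay below every control for 9.98% of all genes in Fra1hep and for 8.17% in Fra2hep, so that pattern alone was common. It held for 2 members in Fra1hep, Otc and Arg1, and for Otc alone in Fra2hep. All 6 mutants lay below all 6 controls for 1.13% of genes, and for 1 of the 10 members, Otc. The average of both strains' effects was -1.53 ± 0.45 (-2.53 to -0.53), lower in 6 of 6 mutants, with an edgeR adjusted p of 0.0792. With DESeq2 that average passed at an adjusted p of 0.0217, in a fit that called 1348 genes for the average in place of 878 by edgeR. Without the mutant 2 of both strains, a choice made after their counts were seen, the Otc effect was smaller, -1.10, and the adjusted p by edgeR was 0.0165; alone, the strains then gave -1.12 (adjusted p 0.0845) and -1.08 (0.192).

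Relative to Cps1 in the same liver, which removes any scaling between libraries, the pattern was the same. The ratio of Otc to Cps1 counts was 0.169 to 0.328 in the Fra1hep controls and 0.0187 to 0.0921 in the Fra1hep mutants. It was 0.153 to 0.214 in the Fra2hep controls and 0.0136 to 0.105 in the Fra2hep mutants. Neither strain's ranges overlapped, though Cps1 itself contributed in Fra1hep, where it was higher in the mutants.

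**Figure D3:**
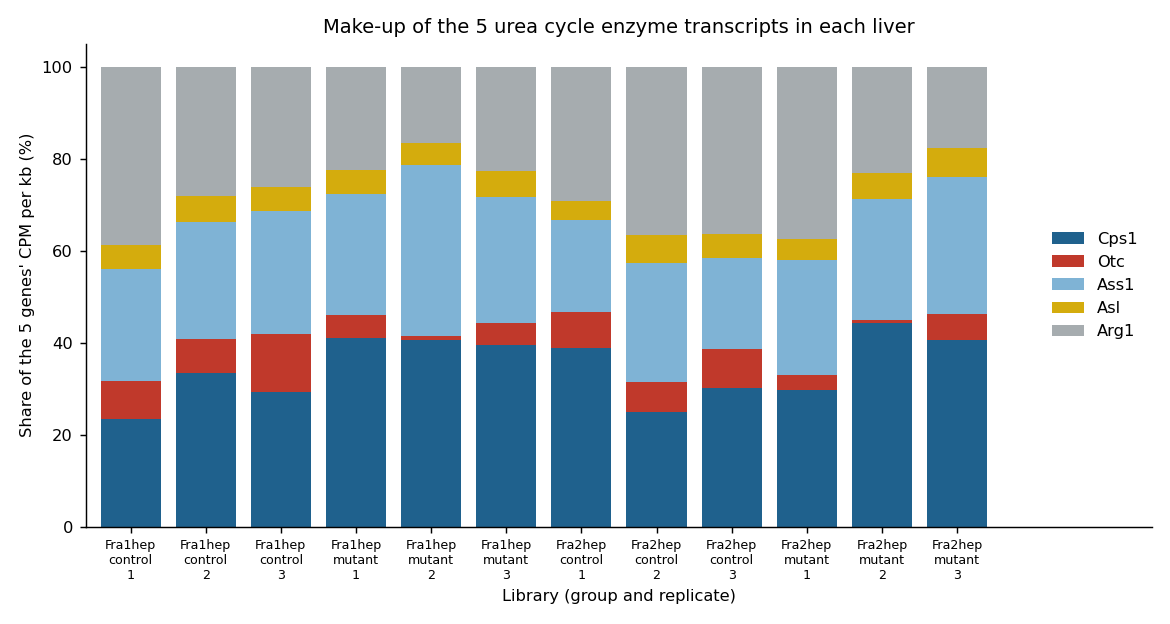
Share of each of the 5 urea cycle enzymes in their summed CPM per kb, one bar per liver, with shares adding to 100 percent. The Otc segment spans 6.54% to 12.6% in the 6 controls and 0.789% to 5.6% in the 6 mutants, and is thinnest in mutant 2 of each strain.

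Of the summed CPM per kb of the 5 urea cycle enzymes, Otc made up 7.38% to 12.6% in the Fra1hep controls and 0.992% to 4.91% in the mutants. In Fra2hep it made up 6.54% to 8.45% and 0.789% to 5.6%. Arg1 took 26% to 38.7% and 16.5% to 22.7% in Fra1hep, while Cps1 took 23.4% to 33.4% and 39.5% to 41%. These 3 shares did not overlap between Fra1hep mutants and controls, and since shares add up they are not independent of each other. In Fra2hep the Cps1 and Arg1 shares did overlap, at 24.8% to 38.8% and 29.8% to 44.2% for Cps1 and at 29.1% to 36.5% and 17.7% to 37.5% for Arg1. The summed CPM of the 5 genes overlapped in both strains, at 5739.7 to 7411 and 6167 to 7940.1 in Fra1hep and at 6169 to 8537 and 5422 to 7289.7 in Fra2hep.

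Cps1, the entry enzyme of the cycle, was at 2872, 2891 and 2912 CPM in the Fra1hep controls and at 3624, 4721 and 3849.9 CPM in the Fra1hep mutants. In Fra2hep it was at 3955, 2505 and 3998 CPM in the controls and at 3497, 3881 and 3133 CPM in the mutants. The Fra1hep groups did not overlap, whereas the Fra2hep mutants lay within the range of their controls. Cps1 gave a log2 fold change of 0.49 ± 0.19 (SE; 95% confidence interval 0.08 to 0.90) in Fra1hep, with an edgeR adjusted p of 0.204, and 0.01 ± 0.19 in Fra2hep, with an edgeR adjusted p of 0.997. Every mutant lay above every control for 11.7% of all genes in Fra1hep and for 9.31% in Fra2hep; Cps1 was the 1 member of this kind in Fra1hep, and Fra2hep had none. No member had all 6 mutants above all 6 controls, which 2.47% of genes had. The tight Fra1hep controls, with an SD of 20.01 CPM, were not typical of the gene, since the Fra2hep controls had an SD of 849.5 CPM.

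Ass1, which joins citrulline and aspartate, averaged 1137 ± 169.6 CPM in the Fra1hep controls, 1351 ± 466 in the Fra1hep mutants, 1057 ± 149.5 in the Fra2hep controls and 1091 ± 155 in the Fra2hep mutants (SD, n = 3 each). The Fra1hep mutant mean rested on mutant 2, which at 1882 CPM was above every other liver, beside 1012 and 1160.03 CPM in the other two. Without that mutant the Fra1hep log2 fold change of Ass1 went from 0.25 to -0.07. Asl, which splits argininosuccinate, was at 408 to 477 CPM in the Fra1hep mutants and 414 to 467 in the Fra2hep mutants, inside the control ranges of 420.4 to 558 and 380.4 to 597 except for 1 Fra1hep mutant just under them. Its log2 fold changes were -0.09 ± 0.17 and -0.22 ± 0.17 (edgeR adjusted p 0.858 and 0.695), and without scaling factors the first became 0.06.

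Arg1, the last enzyme, was at 1902, 979 and 1036 CPM in the Fra1hep controls and at 791, 772 and 888 CPM in the Fra1hep mutants. It was at 1189, 1478 and 1935 CPM in the Fra2hep controls and at 1764, 815 and 546 CPM in the Fra2hep mutants. The Fra1hep mutants lay below all their controls, as for 9.98% of all genes, but 1 Fra2hep mutant, mutant 1, was as high as the controls. Log2 fold changes were -0.68 ± 0.39 in Fra1hep (edgeR adjusted p 0.432) and -0.56 ± 0.39 in Fra2hep (edgeR adjusted p 0.662). The average of both was -0.62 ± 0.28 with an edgeR adjusted p of 0.25, and 5 of the 6 mutants lay below every control of their strain. Leaving out Fra2hep mutant 1 made it -0.92 with an edgeR adjusted p of 0.0326, the 1 library whose removal brought a pass.

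The 3 enzymes that free ammonia from amino acids had log2 fold changes smaller in size than those of Otc and Arg1 in both strains. Hal, which opens histidine breakdown, had the smallest spread of the 10, with an SD of 0.16 (log2 CPM) over the 12 livers, against 1.27 for Otc. It averaged 383 ± 15.2 and 439.9 ± 82.4 CPM in Fra1hep controls and mutants and 398 ± 31.1 and 443 ± 19.1 CPM in Fra2hep (SD, n = 3 each). Its log2 fold changes were 0.20 ± 0.14 and 0.15 ± 0.14 (edgeR adjusted p 0.509 and 0.751). Gls2, liver-type glutaminase, averaged 402 ± 36.1 and 525 ± 159 CPM in Fra1hep and 359.7 ± 35.6 and 382 ± 22.1 CPM in Fra2hep (SD, n = 3 each), with log2 fold changes of 0.38 ± 0.18 and 0.09 ± 0.18 (edgeR adjusted p 0.324 and 0.915). Mutant 2 of Fra1hep was the highest of the 12 livers for Cps1, Ass1, Hal and Gls2 and had the lowest Otc of its strain. Sds, serine dehydratase, ranged over 109 to 312 CPM with overlapping groups. Its 3 highest livers were Fra2hep mutant 1 at 312, Fra1hep control 1 at 274 and Fra1hep mutant 2 at 272 CPM. Its log2 fold changes were -0.01 ± 0.42 and 0.37 ± 0.42 (edgeR adjusted p 0.996 and 0.818), and the sign of the first changed with the scaling, the filter and the library left out.

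Cyp2f2 was at 1082, 1321 and 1849 CPM in the Fra1hep controls and at 2003, 1551 and 2925 CPM in the Fra1hep mutants. It was at 937, 734 and 1486 CPM in the Fra2hep controls and at 1603, 1345 and 1938 CPM in the Fra2hep mutants. In each strain mutants 1 and 3 were above every control and mutant 2 was not. Log2 fold changes were 0.61 ± 0.31 and 0.63 ± 0.31 (edgeR adjusted p 0.354 and 0.476), and the average of both was 0.62 ± 0.22 (edgeR adjusted p 0.134).

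Pigr was at 916, 1253 and 1147 CPM in the Fra1hep controls and at 1095, 551 and 811 CPM in the Fra1hep mutants. It was at 1671, 595.5 and 1175.5 CPM in the Fra2hep controls and at 594, 778 and 580.0 CPM in the Fra2hep mutants. The ranges overlapped in both strains, in Fra2hep because control 2 was as low as the mutants. Log2 fold changes were -0.43 ± 0.34 in Fra1hep (edgeR adjusted p 0.578) and -0.82 ± 0.34 in Fra2hep (edgeR adjusted p 0.383), and the average was -0.63 ± 0.24 (edgeR adjusted p 0.171). Without Fra2hep control 2 that average was -0.78 with an edgeR adjusted p of 0.0408, the 1 library whose removal brought a pass.

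No member's mutant effect differed between the strains by the test of the difference itself, which called 0.0355% of all genes by edgeR; adjusted p values of the members ran from 0.833 to 0.998 and none had an unadjusted p under 0.05. For Cps1 the difference, Fra2hep minus Fra1hep, was -0.48 ± 0.26 (95% confidence interval -1.06 to 0.09). For Otc it was -0.02 ± 0.89, with an interval of -1.98 to 1.94 that leaves room for a large difference either way. Between the 2 control groups edgeR called 0% of genes at the adjusted threshold, with 753 genes at an unadjusted p under 0.05 and 18 genes called by DESeq2. None of the members differed there (edgeR adjusted p 0.868 to 0.988, log2 differences -0.43 to 0.27, Fra2hep minus Fra1hep).

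Of the 12781 other protein-coding genes tested, the 5 with the profile nearest to that of Otc over the 12 livers were Slc39a4, Pbld2, Cadm4, Mapk15 and Pdzrn3. Likeness was the root mean square distance between log2 CPM values, each gene centred on its mean over the 12 livers. The distances were 0.51, 0.59, 0.72, 0.72 and 0.73 on the log2 scale. These genes were picked for their pattern, so their levels are given as a description. Slc39a4, a zinc transporter, was at 122 to 142 CPM in the Fra1hep controls and at 58.1, 27.4 and 74.0 CPM in the mutants. In Fra2hep it was at 99.3 to 131 CPM in the controls and at 46.4, 24.6 and 45.6 CPM in the mutants. Pbld2 was at 154 to 197 CPM and at 53.7, 17.4 and 55.7 CPM in Fra1hep, and at 186 to 209 CPM and at 43.7, 15.7 and 31.6 CPM in Fra2hep. All 5 shared with Otc a lowest value in mutant 2 within each mutant group.

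**Figure D4:**
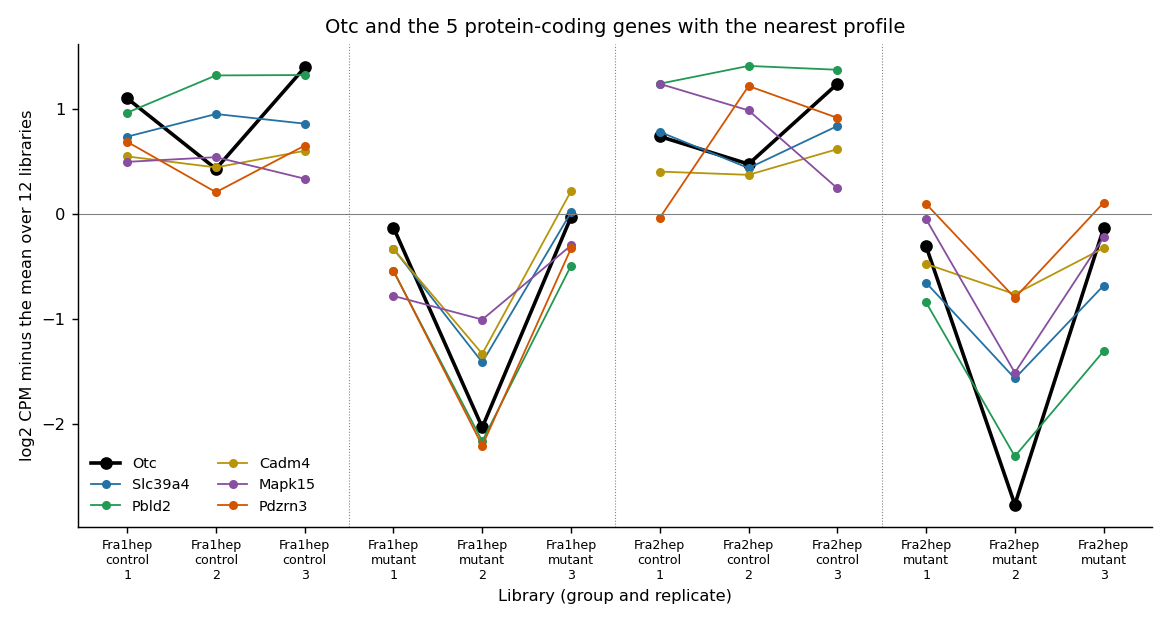
Log2 CPM of Otc (black, thick) and of the 5 nearest protein-coding genes in each library, minus the gene's mean over the 12 libraries, with libraries in groups along the horizontal axis. In both mutant groups all 6 curves dip at mutant 2, and the distances of the 5 genes from Otc are 0.51 to 0.73.

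Other genes of the same pathways were read from lists. Of 12 genes for ammonia handling (the cofactor enzyme, mitochondrial carriers, aminotransferases and amino acid transporters), 11 were tested and none was called in either strain; medians were -0.04 in Fra1hep and 0.11 in Fra2hep on the log2 scale, beside 0.01 and -0.01 for all genes. Averaged over both strains, 1 of the 11 was called higher, as were 4.33% of all genes. This was Slc25a15, the mitochondrial ornithine carrier, which is named here after its values were seen. It was at 266, 237 and 277 CPM in the Fra1hep controls, 286, 447 and 520.5 CPM in the Fra1hep mutants, 347, 229 and 384 CPM in the Fra2hep controls and 534, 596 and 373 CPM in the Fra2hep mutants. The averaged log2 fold change was 0.67 ± 0.18 with an edgeR adjusted p of 0.0492, and this call held in 5 of 20 alternative fits, with adjusted p values from 0.00657 to 0.186.

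Of 24 genes for amino acid breakdown, 23 were tested. In Fra1hep 1 was called higher, as were 2.90% of all genes. In Fra2hep none was called, beside 0.845% of all genes called higher and 0.220% lower. Medians were -0.09 and 0.05 and ranges -1.72 to 1.26 and -1.70 to 0.76. The called gene was Gpt2, the mitochondrial alanine aminotransferase, at 345, 331 and 345 CPM in the Fra1hep controls and 958, 712 and 774 CPM in the Fra1hep mutants. It rose there by a log2 fold change of 1.26 ± 0.22 (edgeR adjusted p 0.00768). In Fra2hep it was at 390.1, 400.3 and 615 CPM in the controls and 674, 1034 and 679 CPM in the mutants. That log2 fold change of 0.76 ± 0.22 did not pass (edgeR adjusted p 0.152). It did with DESeq2 (adjusted p 0.0288), which called 448 genes in Fra2hep in place of 150. The mutants lay above all controls in both strains, as for 11.7% of all genes in Fra1hep and 9.31% in Fra2hep. The difference between the strains, -0.50 ± 0.30, did not pass either (edgeR adjusted p 0.864).

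Of 15 further periportal genes, all tested, Cdh1 (E-cadherin) rose and G6pc (glucose-6-phosphatase) fell in Fra1hep, and Hsd17b13 (a lipid droplet protein) fell in Fra2hep. Of all genes, 2.90% were called higher and 0.938% lower in Fra1hep, and 0.220% lower in Fra2hep. The list's medians were -0.30 and -0.05 and its ranges -3.34 to 2.59 and -1.66 to 2.84. Cdh1 was at 49.3, 76.1 and 83.2 CPM in the Fra1hep controls and 163, 279 and 195 CPM in the mutants, a log2 fold change of 1.61 ± 0.35 (edgeR adjusted p 0.0257). G6pc was at 804, 459 and 524 CPM and at 255, 136 and 181 CPM, a log2 fold change of -1.64 ± 0.35 (edgeR adjusted p 0.0261). Neither passed in Fra2hep, where log2 fold changes were 0.77 and 0.08 (edgeR adjusted p 0.415 and 0.968). Hsd17b13 was at 315, 440.0 and 417 CPM in the Fra2hep controls and 199, 229.7 and 191 CPM in the mutants, a log2 fold change of -0.92 ± 0.15 (edgeR adjusted p 0.0165), beside -0.57 ± 0.15 in Fra1hep (edgeR adjusted p 0.0636). The Fra1hep difference of Hsd17b13 passed with DESeq2 (adjusted p 0.00539), which called 1021 genes there in place of 540. It also passed without Fra2hep control 1 (edgeR adjusted p 0.0315). Cdh1 lost its call without Fra1hep control 1, 2 or 3 or mutant 2 (edgeR adjusted p 0.121, 0.0786, 0.0580 and 0.0776), without the filter (0.0902) and without both mutants numbered 2 (0.103). G6pc lost it without Fra1hep control 1 or 3 or mutant 2 or 3 (0.107, 0.0515, 0.0868 and 0.0817), without the filter (0.0794) and without both mutants numbered 2 (0.107). Hsd17b13 lost it without Fra2hep control 2 or 3 or mutant 1 or 3 (0.0630, 0.0665, 0.0621 and 0.0845) and with only the libraries compared in the fit (0.0708).

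At the other end of the lobule, none of 14 pericentral genes was called in either strain. In Fra1hep 13 of the 14 had a negative log2 fold change, with a median of -0.54 beside 0.01 for all genes, and 8 of the 14 had an unadjusted p under 0.05, as did 16.3% of all genes. In Fra2hep 8 of the 14 were positive, with a median of 0.03, and 2 had an unadjusted p under 0.05, as did 11.5% of all genes. The difference between the strains, Fra2hep minus Fra1hep, was positive for 14 of the 14, with a median of 0.69 beside -0.01 for all genes. Of the 14, 5 had an unadjusted p under 0.05 for that difference, as did 6.32% of all genes, but none passed after adjustment (smallest edgeR adjusted p 0.554). Of 15 regulators of these genes, such as receptors and transcription factors for glucagon, glucocorticoid and Wnt signals, 14 were tested and none was called, with medians of -0.14 and -0.04.

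**Figure D5:**
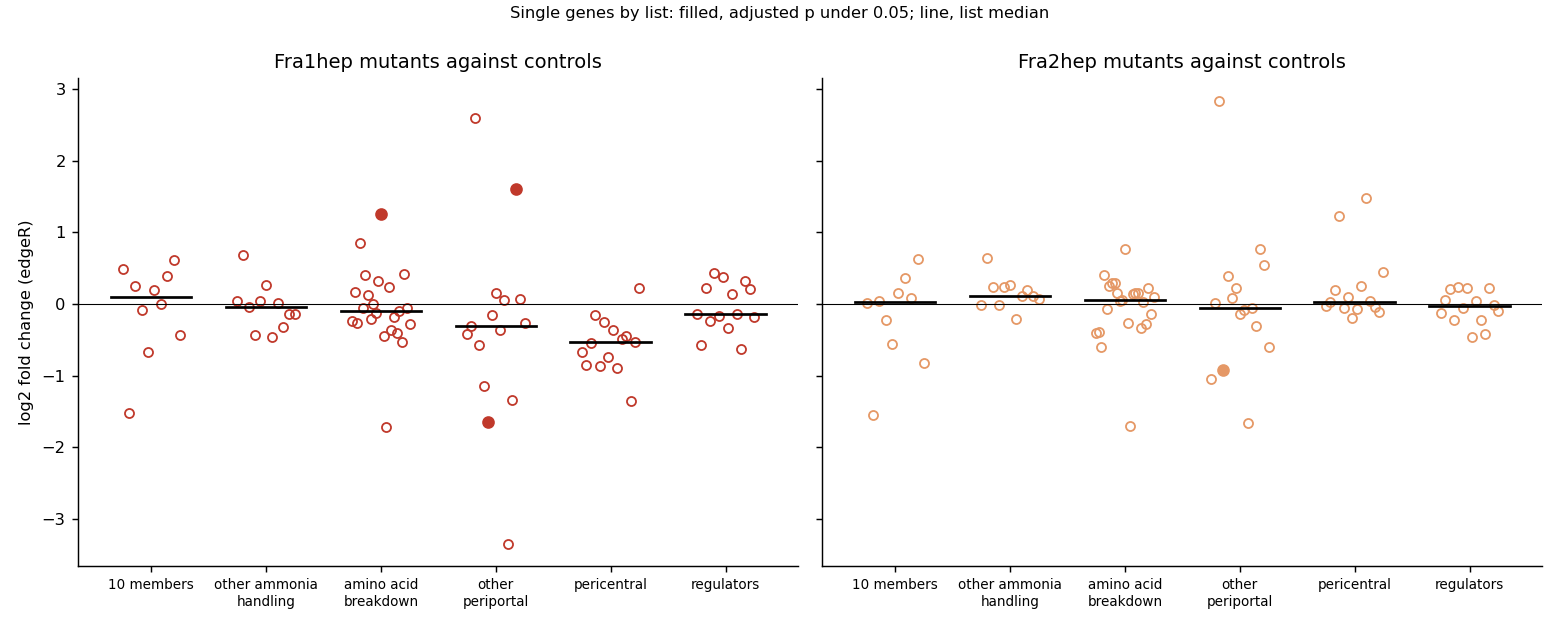
Log2 fold change of single genes by list, Fra1hep left and Fra2hep right; each circle is a gene, filled where its edgeR adjusted p is under 0.05, and the black line is the list's median. Filled circles are Gpt2, Cdh1 and G6pc in Fra1hep and Hsd17b13 in Fra2hep, and no member is filled.

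Markers of other liver cells were read beside these values. Of 6 stellate cell markers 1 was called higher in Fra1hep, as were 2.90% of all genes. This was Dcn (decorin), which rose by a log2 fold change of 0.86 ± 0.12 (edgeR adjusted p 0.00239). The summed level of the 6 was 186 to 231.5 CPM in the Fra1hep controls and 298 to 359 CPM in the mutants, but 267 to 305 and 202 to 280.0 CPM in Fra2hep. Dcn made up 54.6% to 67.4% of that sum in the 12 livers. Without Dcn it was 83.9 to 104.1 and 107.4 to 152.7 CPM in Fra1hep controls and mutants. In Fra2hep it was then 99.9 to 117.3 and 65.8 to 108.6 CPM. Sums of 7 bile duct markers overlapped, at 76.4 to 107 and 29.1 to 326 CPM in Fra1hep and 37.7 to 202 and 75.5 to 206 CPM in Fra2hep. Spp1 alone made up 74.7% to 92.9% of the bile duct sum in the 12 livers. Without Spp1 the sums still overlapped, at 11.8 to 19.9 and 5.37 to 23.1 CPM in Fra1hep controls and mutants. In Fra2hep they were then 9.56 to 28.7 and 13.3 to 25.9 CPM. Pigr is also made by bile duct cells, and no marker of the 7 was at 0 in any group. Sums of 6 Kupffer cell markers overlapped as well, at 209 to 324 and 212 to 289 CPM in Fra1hep and at 175 to 393 and 253 to 426 CPM in Fra2hep. Sums of 6 sinusoidal endothelium markers overlapped, at 143 to 186 and 157.5 to 191 CPM in Fra1hep and 150.5 to 217 and 121 to 186 CPM in Fra2hep.

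Sums of 8 markers of recruited monocytes, macrophages and neutrophils were 31.9 to 39.9 and 38.9 to 54.8 CPM in Fra1hep and 31.6 to 53.5 and 38.3 to 46.4 CPM in Fra2hep, with 4 or 5 of the 8 under 1 CPM in each group. Mrc1, which resident liver cells also express, made up 71.8% to 93.4% of that sum. Without Mrc1 it was 3.53 to 6.29 and 6.34 to 15.5 CPM in Fra1hep controls and mutants, and 3.51 to 7.57 and 5.55 to 10.8 CPM in Fra2hep. In Fra1hep 6 of the 6 tested myeloid markers had a positive log2 fold change, with a median of 0.87. Of these, 3 had an unadjusted p under 0.05, as did 16.3% of all genes, and the smallest edgeR adjusted p was 0.0989. In Fra2hep 5 of the 6 were positive, with a median of 0.27, and none had an unadjusted p under 0.05, beside 11.5% of all genes. Sums of 8 lymphocyte markers were 6.83 to 8.79 and 6.78 to 15.3 CPM in Fra1hep and 8.58 to 10.4 and 5.51 to 11.0 CPM in Fra2hep. Sums of 7 pancreas and gut markers were 0.457 to 3.10 and 2.79 to 23.1 CPM in Fra1hep and 0.391 to 3.53 and 0.26 to 1.96 CPM in Fra2hep, where 4 of the 7 were at 0 in every library of both Fra2hep groups and of the Fra1hep controls. Vil1, the 1 pancreas and gut marker that passed the filter, made up 41.5% to 98.8% of that sum in the Fra1hep mutants. Without Vil1 it was 0.196 to 1.03 and 0.274 to 1.63 CPM in Fra1hep controls and mutants. In Fra2hep it was then 0.279 to 0.552 and 0.104 to 0.436 CPM. Apart from Dcn, none of the tested markers of these 7 other cell types passed in either strain. The part of other cells in the members' levels was not tested.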

How the data were processed

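Liver RNA was enriched for polyadenylated transcripts and made into libraries that keep strand, per the labels. The authors deposited raw counts, whole numbers for each gene and library. The submitters' processing notes name GRCm38 (mm10) and, with no roles, DESeq2 1.22.2, STAR 2.6.1a, bedtools 2.27.1 and RSEM; nothing read here says which tool made the counts, or how it treated strand and reads shared by genes. Data of a further strain that the design mentions were not analysed here.

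Groups came from the titles. Two-sided tests used R 4.3.3 and edgeR 4.0.16: filterByExpr by group (14076 genes kept), TMM factors (0.910 to 1.08), 4 group means fitted to all 12 libraries by the robust quasi-likelihood model, and Benjamini-Hochberg adjustment over all genes, called at an adjusted p under 0.05. CPM values use scaled library sizes, and log2 CPM a prior count of 2. Pairs of libraries within a group all differed beyond sampling noise by a chi-square test of counts. The same code was tested on simulated counts. Counting error alone is small at 969 or more counts, although PCR copies cannot be told from molecules.

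The 10 members and the gene and marker lists were chosen with earlier results of these data known. Named beside the members are the targeted genes, up to 3 called genes per list and strain with the smallest adjusted p, and the 5 protein-coding genes nearest to the member with the largest spread. The averaged mutant effect was added after seeing the data. Mut and, by the filter, Arg2 and Glp1r were not tested.

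Other fits dropped the filter or asked for at least 1 CPM in 3 libraries, scaled by RLE or not at all, used limma-voom (limma 3.58.1) or DESeq2 1.42.0, took only the groups compared, blocked on replicate number, left out each library and, added after seeing the data, left out both mutants numbered 2. Alb, Tat and Ftcd each stand in more than 1 list.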

Additional observations from a re-analysis of the deposited data

How the results depend on the processing

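In 660 alternative fits of the 10 members, 625 kept both direction and side of the threshold, 29 changed sign and 6 passed the threshold. All 6 passes concerned the averaged effect: Otc with DESeq2 (adjusted p 0.0217), with the replicate block (0.0274) and without both mutants numbered 2 (0.0165), Cyp2f2 with the block (0.0376), Pigr without Fra2hep control 2 (0.0408) and Arg1 without Fra2hep mutant 1 (0.0326). Otc kept its direction in every fit of either strain, from -1.83 to -1.11 in Fra1hep and from -1.93 to -1.08 in Fra2hep. Sign changes concerned effects of -0.09 to 0.37 on the log2 scale, and their cause was not tested. Without scaling factors Asl became 0.05996 and Sds 0.1502 in Fra1hep, and the Cps1 level of the Fra1hep controls 2799.9 CPM. Sds in Fra1hep also became 0.003479 with limma-voom, 8.965e-05 without the filter and 0.02188 with the block, and Cps1 in Fra2hep -0.0001479 with only the libraries compared. Without both mutants numbered 2, Ass1 in Fra1hep became -0.07749, Cps1 in Fra2hep -0.07675, G6pc in Fra2hep -0.004853 and the Otc difference between strains 0.04186. With each library left out in turn, the ranges were -0.1757 to 0.01599 for Asl, -0.4347 to 0.4086 for Sds and -0.06571 to 0.4123 for Ass1 in Fra1hep. In Fra2hep they were -0.1836 to 0.1169 for Cps1, -0.0785 to 0.1106 for Ass1, -0.07351 to 0.6487 for Sds and -0.2171 to 0.4996 for G6pc. They were -0.433 to 0.4449 for the Otc difference, and -0.01037 to 0.2271 for Ass1 and -0.03986 to 0.3838 for Sds in the averaged effect. DESeq2 called more genes: 1021 in Fra1hep, 448 in Fra2hep, 69 for the difference, 18 between controls and 1348 for the average, in place of 540, 150, 5, 0 and 878. Without the filter the difference had 9 and the controls 3. With only the libraries compared Fra2hep had 90, and without both mutants numbered 2 it had 88 and the difference 1. With each library left out, counts were 267 to 582 for Fra1hep, where leaving out control 1, 2 or 3 gave 267, 317 and 349. They were 53 to 184 for Fra2hep, where leaving out control 2 or 3 or mutant 1, 2 or 3 gave 76, 59, 95, 56 and 53. They were 0 to 13 for the difference, 0 to 1 between controls and 599 to 903 for the average. The replicate block gave 371 calls in Fra1hep, without Cdh1 (edgeR adjusted p 0.0551), and 98 in Fra2hep. Deviations from the group mean over 14076 genes were correlated between same-numbered libraries. The values were -0.0714, 0.0473 and 0.0527 in Fra1hep and 0.0558, 0.0319 and -0.121 in Fra2hep. They show no pairing by number over all genes, but for Otc the order of the numbers was the same in every group. Whether same-numbered mice shared a litter or cage was not tested.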
